A study of Mus musculus with 391 samples.

Results

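Dusp1, Zfp36, Btg2, Ier2, Ier3, Ier5, Socs3 and Nr4a1 are early-response genes, called the feedback genes here, because most of their products restrain the signalling or the transcripts that a stimulus switches on. They were taken by name and are 8 of the 56941 genes in the deposited count table, where each has 1 row. The study sequenced single cells from vascular fragments of the brains of adult mice, which had been digested to a cell suspension and sorted into plates, with Smart-seq2, a full-length RNA sequencing protocol. The labels give 280 cells as microglia, the macrophages that live in the brain, and 111 cells as endothelial, the cells that line vessels. The deposited cell table codes the 2 classes MG and CP-EC. All cells come from dissociated brain tissue, and no strain, sex, treatment or animal is given in the sources used here. Each class therefore counts as 1 sample, no test between classes was possible, and no p-value is given. Intervals in parentheses are exact 95% intervals that cover counting error only, not the variation between cells or animals, and the reads carry no molecular identifiers.

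An early-response gene is transcribed within minutes of a stimulus from factors already in the cell, without new protein synthesis, and its transcript is usually short-lived. Many encode brakes: phosphatases that switch off MAP kinases, RNA-binding proteins that shorten inflammatory transcripts, and inhibitors of cytokine receptors. In brain macrophages and vessels such genes respond to injury and inflammation and also to the enzymatic dissociation that precedes single-cell sequencing. Whether the levels below were present in the tissue or arose during cell preparation cannot be told apart here, since every cell was dissociated.

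Reads in genes ran from 39876 to 504875 per microglia-class cell, with a median of 146506, and from 83954 to 602175 per endothelial cell, with a median of 174345. The cells came from 4 plates, called A to D. Plate A held 133 microglia-class cells beside 7 endothelial cells and plate B 147 beside 10, in different rows of the plate, and plates C and D held the other 50 and 44 endothelial cells. Class labels fitted their defining markers: 10 microglia and macrophage markers summed to 29104 CPM in the microglia class and 159 CPM in endothelial cells, and 10 endothelial markers to 272 CPM in the microglia class and 24965 CPM in endothelial cells. The first of these lists covers microglia and macrophages together and does not separate them. Mrc1 is a receptor typical of border-associated macrophages, and Sall1 a transcription factor of parenchymal microglia. At 10 or more reads, 186 of the 280 microglia-class cells held Mrc1 without Sall1, and 36 held Sall1 without Mrc1. The sum of 8 markers of border-associated macrophages was 7352 CPM in the microglia class and 612 CPM in endothelial cells.

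Pooled over all cells of a class, each of the 8 feedback genes was higher in the microglia class than in endothelial cells, by 1.30-fold for Nr4a1 to 10.05-fold for Btg2. The order of the classes turned round for Socs3 within plate A and for Nr4a1 when the values of single cells were averaged. Levels are CPM, which is how many of every 1000000 gene reads of a class fell in the gene. Fold sizes were called at 4-fold or more on a scale of log2(CPM + 1). Only Btg2 and Ier5, 2 of the 8, passed 4-fold in the microglia class, against 19.9% of the 14989 genes at 1 CPM or more in either class. In the endothelial class 0 of the 8 passed 4-fold, against 11.7% of those genes. The members' count in the microglia class is thus near the share of all genes.

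For the 8 genes the median log2 ratio, taken as microglia class over endothelial class, was 1.49, and for all genes tested 0.36. Within plate A 2 of the 8 passed 4-fold in the microglia class, against 46.5% of the 14160 genes tested there, and 0 passed in the endothelial class, against 10.9%. Within plate B 2 of the 8 passed in the microglia class, against 48.4% of 13649 genes, and 0 in the endothelial class, against 11.5%. On both shared plates the genes past 4-fold were Zfp36 and Btg2, not Btg2 and Ier5. The 8 genes had a median of 0.89 on plate A and 1.07 on plate B, below the medians of 1.73 and 1.87 over all genes tested there. They lay above genes at 300 CPM or more in either class, a limit outside the planned comparisons. Medians of those genes were -0.20 pooled, -0.88 on plate A and -0.79 on plate B. Past 4-fold in the microglia class were 25.4% of them pooled, 22.5% on plate A and 22.8% on plate B. In the endothelial class the shares were 30.0%, 33.5% and 33.1%. The endothelial values within plates A and B rest on 7 and 10 cells.

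**Figure D1:**
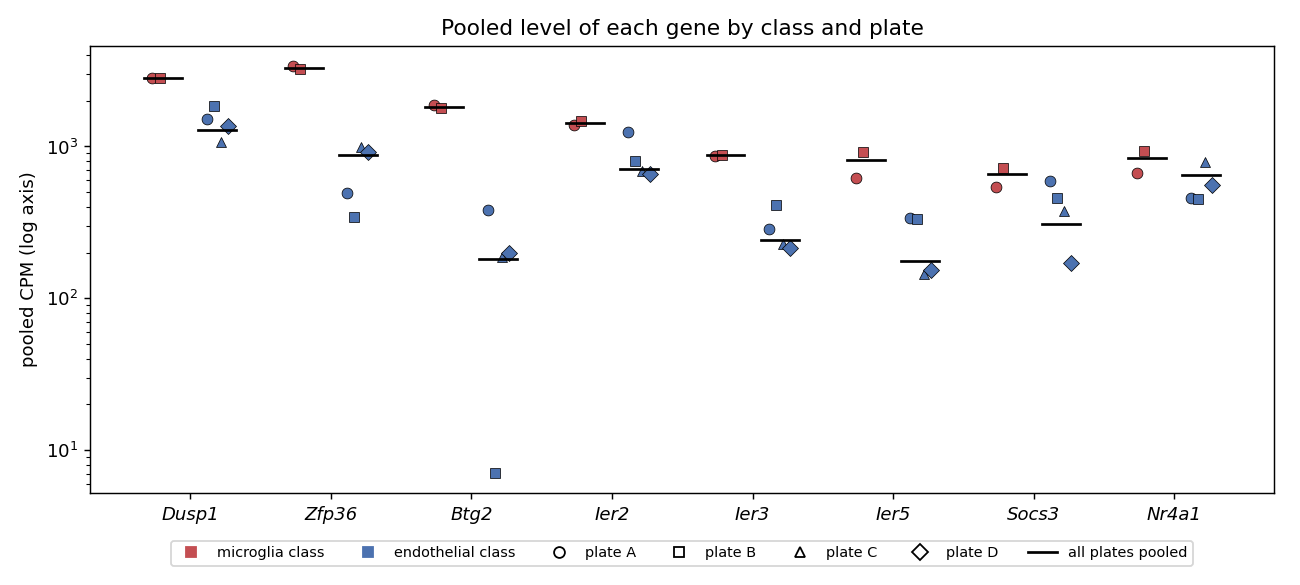
Pooled level of each feedback gene in CPM, on a log axis, in the microglia class (red) and the endothelial class (blue), with a marker for each plate and a bar for all plates of the class pooled. Microglia-class values of Dusp1, Zfp36, Btg2, Ier2 and Ier3 nearly coincide on plates A and B, while endothelial Btg2 spans 7.07 CPM on plate B to 382 CPM on plate A.

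Levels of different genes were compared per kilobase of exon. In the microglia class the order ran from Zfp36 at 949 CPM per kb through Ier2 at 943, Dusp1 at 854, Ier3 at 776 and Btg2 at 667 to Ier5 at 249, Nr4a1 at 239 and Socs3 at 227 CPM per kb. Zfp36 and Ier2 overlapped over the plates there, and so did Ier5, Nr4a1 and Socs3. In endothelial cells Ier2 led with 470 CPM per kb, followed by Dusp1 at 388, Zfp36 at 251, Ier3 at 215, Nr4a1 at 184, Socs3 at 107, Btg2 at 66.3 and Ier5 at 53.5 CPM per kb. Among endothelial neighbours in that order, only Dusp1 and Zfp36 did not overlap over the plates.

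Dusp1, on chromosome 17, encodes a nuclear phosphatase that inactivates the stress kinases p38 and JNK and the kinase ERK. Single microglia-class cells ranged from 7.95 to 16192 CPM with a median of 2471 CPM, and endothelial cells from 0 to 6802 CPM with a median of 848 CPM. The ranges overlapped, and every microglia-class cell had a Dusp1 read while 9 endothelial cells had 0. Pooled, Dusp1 stood at 2828 (2813 to 2843) CPM in the microglia class and 1285 (1269.8 to 1300.2) CPM in endothelial cells, a ratio of 2.20 (2.17 to 2.23). On plates A and B it was 1.88-fold and 1.53-fold higher in the microglia class. Dusp1 had the smallest spread of the 8 over plates in both classes, with 2839 and 2822 CPM on plates A and B in the microglia class and 1070.3 to 1848 CPM on the 4 plates in endothelial cells.

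Of 9 measured MAP kinase phosphatases, Dusp1 included, 2 were 4-fold or more higher in the microglia class, 0 were in endothelial cells and 7 lay between. The shares of all genes past 4-fold were 19.9% and 11.7%, as given above. The list's median log2 ratio was 1.15 pooled, 0.91 on plate A and 4.44 on plate B, against 0.36, 1.73 and 1.87 over all genes. Dusp6, which acts on ERK in the cytoplasm, stood at 992 CPM in the microglia class and 307 CPM in endothelial cells. Dusp2, a phosphatase of immune cells, stood at 98.9 CPM in the microglia class and 9.18 CPM in endothelial cells. Among 15 measured MAP kinases and their activating kinases, 3 passed 4-fold in the microglia class, 2 in endothelial cells and 10 lay between, with a median log2 ratio of 0.02 pooled, 1.02 on plate A and -0.19 on plate B. Mapk14, which encodes p38 alpha, a substrate of the Dusp1 phosphatase, had 292 CPM in the microglia class and 66.7 CPM in endothelial cells. Mapk12, which encodes p38 gamma, had 1.28 CPM in the microglia class and 236 CPM in endothelial cells.

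The promoters of Dusp1 and Btg2 are shown because both hold the full cyclic AMP response element TGACGTCA, the site that CREB-family factors bind. They come from the RefSeq promoter table for GRCm38.p6, in which 7 of the 8 genes were matched, and 250 bases before the start of each gene were searched on both strands for 7 motifs. Capitals mark matches, and positions count back from the start of the gene. The full element was present in 1.55% of the 32851 promoters of the table. In Dusp1 it begins 143 bases before the start, with a separate half-site TGACG at 191, and the stretch lies at chr17:26508588-26508683 on the minus strand. In Btg2 it begins 166 bases before the start, with an EGR site GCGNGGGCG at 131, and the stretch lies at chr1:134079258-134079341 on the minus strand. EGR sites were present in 4.70% of promoters and half-sites, which the full element contains, in 17.8%.
Dusp1 promoter: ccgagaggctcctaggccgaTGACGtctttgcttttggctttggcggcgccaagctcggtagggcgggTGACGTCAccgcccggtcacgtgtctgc
Btg2 promoter: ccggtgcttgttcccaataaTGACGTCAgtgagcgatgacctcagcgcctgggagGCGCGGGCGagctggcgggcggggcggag

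Zfp36, on chromosome 7, encodes tristetraprolin, which binds AU-rich elements in the 3′ untranslated regions of transcripts and recruits deadenylases that shorten their tails. Among microglia-class cells it ranged from 16.1 to 11342 CPM with a median of 3017 CPM, and among endothelial cells from 0 to 5093 CPM with a median of 390.4 CPM. The upper part of the microglia-class range lay above every endothelial cell, and the lower part overlapped it. Pooled, the level was 3292 (3276 to 3309) CPM in the microglia class and 872 (860 to 885) CPM in endothelial cells, 3.77-fold (3.72 to 3.83). The distance was larger on the plates that held both classes, 6.84-fold on plate A and 9.48-fold on plate B, where endothelial cells had 494 and 342 CPM. Endothelial cells of plates C and D had 985 and 919.7 CPM.

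Of the ZFP36 family, 0 of 3 measured members passed 4-fold in either class, and the median log2 ratio was 1.54 pooled, 2.77 on plate A and 3.24 on plate B. Zfp36l1, a relative with the same kind of zinc fingers, stood at 562 CPM in the microglia class and 737 CPM in endothelial cells. Within plates A and B the log2 ratio of Zfp36l1 was 0.70 and 1.14, the opposite direction to the pooled -0.39. Zfp36l2, the other family member measured, stood at 118 CPM in the microglia class and 39.9 CPM in endothelial cells. Of the deadenylase complexes that tristetraprolin recruits, 0 of 13 genes of CCR4-NOT and PAN passed 4-fold in either class, against the same shares of all genes. Their median log2 ratio was 0.39 pooled, -0.18 on plate A and 1.58 on plate B. Cnot8, a catalytic subunit, had 207 CPM in the microglia class and 135 CPM in endothelial cells, but its log2 ratio was -1.42 on plate A and 0.91 on plate B. Cnot2, a scaffold subunit, had 97.4 CPM in the microglia class and 100.5 CPM in endothelial cells.

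Transcripts known as targets of tristetraprolin were mostly higher in the microglia class. Of 13 measured, 10 were 4-fold or more higher in the microglia class, 0 in endothelial cells, and 3 lay between. For all genes the shares past 4-fold were 19.9% and 11.7%. The list's median log2 ratio was 6.25 pooled, 5.61 on plate A and 6.59 on plate B, against 0.36, 1.73 and 1.87 over all genes. The chemokine genes Ccl4 and Ccl3 stood at 898 and 785 CPM in the microglia class and 1.12 and 0.61 CPM in endothelial cells. Tnf, the cytokine whose transcript is the best known target, stood at 479.9 CPM in the microglia class and 0.05 CPM in endothelial cells, where 1 cell held its only read, a ratio of 10251 (1839.7 to 404919). The cytokine and growth genes Il1b at 286 CPM, Cxcl2 at 156, Myc at 138 and Il1a at 135 CPM in the microglia class also passed 4-fold, and in endothelial cells the 4 genes had 0.09 to 4.73 CPM.

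Several feedback genes carry the tristetraprolin heptamer TATTTAT in their own 3′ untranslated region, and sites are shown for the 4 genes with more than 1 match. In GENCODE M21 transcripts, Ier3 held 4 matches in 613 bases, Dusp1 3 in 690, Zfp36 itself 3 in 774, and Socs3 2 overlapping matches in 1474 bases. Btg2 held 1 match in 2199 bases, and 0 were found in Ier2, Ier5 and Nr4a1. As many matches or more were found in 0.55% of untranslated regions within 10% of the length of that of Ier3, in 1.28% for Dusp1, 1.44% for Zfp36 and 10.6% for Socs3. Each stretch below is 28 bases long and capitals mark the heptamer, also where a neighbouring match reaches into the stretch.
Ier3 site: gtctaattaaTATTTATgTATTTATgta
Dusp1 site: agctggtcctTATTTATttaacaccccc
Zfp36 site: ATgacgacttTATTTATtgtattaagat
Socs3 site: tttgcacataTATTTATATTTATactca
A match describes the letters only, and neither binding nor decay was measured.

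The Zfp36 promoter is shown because it held 3 different motifs within its last 125 bases, at chr7:28379229-28379353 of GRCm38.p6 on the minus strand. An EGR site begins 105 bases before the start, a CArG box, the site of serum response factor, 58 bases before it, and a STAT site TTCNNNGAA 17 bases before it. CArG boxes were present in 1.47% of promoters and STAT sites in 7.02%. The Socs3 promoter also held an EGR site, at 181, and a STAT site, at 154, and is printed for chr11:117969492-117969567 on the minus strand. Ier3 held an NF-kB site, a motif found in 3.90% of promoters, at 92 bases before the start, within chr17:35821601-35821650 on the plus strand. Nr4a1 held an EGR site and 4 half-sites of the cyclic AMP response element. The AP-1 site TGANTCA, present in 6.75% of promoters, was not found in the 7 promoters, and Ier5 held none of the 7 motifs in this window.
Zfp36 promoter: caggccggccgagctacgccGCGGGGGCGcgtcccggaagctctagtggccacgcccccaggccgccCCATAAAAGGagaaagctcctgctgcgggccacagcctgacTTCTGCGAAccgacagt
Socs3 promoter: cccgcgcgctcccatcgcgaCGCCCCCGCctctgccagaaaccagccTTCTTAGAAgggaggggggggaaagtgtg
Ier3 promoter: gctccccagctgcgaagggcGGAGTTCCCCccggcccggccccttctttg

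Btg2, on chromosome 1, encodes an antiproliferative protein that binds the CCR4-NOT deadenylase and slows the cell cycle. Over the pooled classes it showed the largest ratio of the 8, 10.05-fold (9.74 to 10.38), with 1828 (1816 to 1841) CPM in the microglia class and 182 (176 to 188) CPM in endothelial cells. Single microglia-class cells ranged from 0 to 13371 CPM with a median of 1524 CPM, and endothelial cells from 0 to 2162 CPM with a median of 4.76 CPM. The ranges overlapped, and 213 of 280 microglia-class cells had 10 or more reads against 30 of 111 endothelial cells. The endothelial level depended on the plate. It was 382 CPM in 7 cells on plate A, 186 on plate C and 198 on plate D, but 7.07 CPM in 10 cells on plate B, where no cell exceeded 16.2 CPM. The ratio was 4.94 on plate A and 254 on plate B, with microglia-class levels of 1889 and 1795 CPM. On plate A the ratio of Zfp36, 6.84, was larger.

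Of 5 measured members of the BTG and TOB family only Btg2 passed 4-fold, in the microglia class, where 19.9% of all genes did. The family's median log2 ratio was -0.54 pooled, -0.32 on plate A and -1.54 on plate B. Btg1, its closest relative, stood at 633 CPM in the microglia class and 208 CPM in endothelial cells. Tob2, which has the same deadenylase-binding domain, stood at 146 CPM in the microglia class and 213 CPM in endothelial cells.

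The IER genes encode small nuclear or cytoplasmic proteins with no common enzymatic function. Ier2, on chromosome 8, encodes a nuclear protein linked to transcription and cell migration. Its cells ranged from 0 to 11118 CPM with a median of 798 CPM in the microglia class, and from 0 to 5120 CPM with a median of 397 CPM in endothelial cells. Most cells of either class held it, and the ranges overlapped. Pooled, it stood at 1435 (1425 to 1446) CPM in the microglia class and 715 (703 to 726) CPM in endothelial cells, 2.01-fold (1.97 to 2.04). Within plate A the ratio was 1.12, with 1386 CPM in the microglia class and 1238 CPM in endothelial cells, and within plate B it was 1.82.

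Ier3, on chromosome 17, encodes a regulator of apoptosis and of NF-kB and ERK signalling. It ranged from 0 to 7280.2 CPM with a median of 353 CPM among microglia-class cells, and from 0 to 1746 CPM with a median of 7.41 CPM among endothelial cells. The medians of the classes stood further apart as a ratio than the pooled levels, which were 877 (869 to 886) CPM in the microglia class and 243 (236 to 249) CPM in endothelial cells, 3.61-fold (3.51 to 3.72). Within plates A and B the ratio was 3.03 and 2.14.

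Ier5, on chromosome 1, encodes a cofactor of the heat shock factor HSF1. It ranged from 0 to 5016 CPM with a median of 514 CPM among microglia-class cells, and from 0 to 3053 CPM with a median of 0 CPM among endothelial cells. In endothelial cells 74 of 111 had 0 reads, so that the class level came from a minority of cells. Pooled, it stood at 815 (807 to 823) CPM in the microglia class and 175 (169.8 to 181) CPM in endothelial cells, 4.65-fold (4.49 to 4.81). The 4-fold size did not hold within plates: the ratio was 1.83 within plate A, with 615 CPM in the microglia class and 336 CPM in endothelial cells, and 2.79 within plate B, with 924 CPM in the microglia class and 331 CPM in endothelial cells. The fourth member of the family, Ier5l, stood at 9.07 CPM in the microglia class and 15.9 CPM in endothelial cells.

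Socs3, on chromosome 11, encodes an inhibitor of the receptor chain shared by interleukin 6 and its relatives and of the JAK kinases bound to it. It ranged from 0 to 10083 CPM with a median of 11.3 CPM in the microglia class, and from 0 to 2319 CPM with a median of 5.44 CPM in endothelial cells. In both classes most cells had few or no reads and a minority had levels far above the median. Pooled, it stood at 657 (650.0 to 665) CPM in the microglia class and 309.9 (302 to 317) CPM in endothelial cells, 2.12-fold (2.07 to 2.18). The order turned round within plate A, with 537 CPM in the microglia class and 597 CPM in endothelial cells, a log2 ratio of -0.15, and was 1.59-fold within plate B. Endothelial Socs3 was lowest on plate D, at 169.7 CPM.

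Pooled over plates, the SOCS family as a whole did not lean to the microglia class. Of 8 measured SOCS genes 0 passed 4-fold in the microglia class, against 19.9% of all genes. In endothelial cells 3 passed, against 11.7% of all genes, and 5 lay between. The median log2 ratio was -1.13 pooled, 0.05 on plate A and 0.64 on plate B, against 0.36, 1.73 and 1.87 over all genes. Socs5 stood at 15.7 CPM in the microglia class and 291 CPM in endothelial cells, though its log2 ratio was 0.24 on plate A and -3.52 on plate B. Cish, an inhibitor of STAT5 signalling, stood at 10.8 CPM in the microglia class and 182 CPM in endothelial cells. Socs2, an inhibitor of growth hormone signalling, stood at 7.45 CPM in the microglia class and 88.8 CPM in endothelial cells. It is named to complete the count of 3, after its values were seen.

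Of 12 receptor and JAK-STAT genes of the interleukin 6 family, 2 passed 4-fold in each class and 8 lay between, with a median log2 ratio of 0.49. The list's median was 1.78 on plate A and 4.18 on plate B. The signalling chain Il6st, named after its values were seen, lay between when plates were pooled, with 126 CPM in the microglia class and 81.2 CPM in endothelial cells. Il6ra, the binding chain for interleukin 6, stood at 361 CPM in the microglia class and 6.69 CPM in endothelial cells, and Csf3r, the receptor for the granulocyte growth factor G-CSF, at 200.0 CPM in the microglia class and 0.09 CPM in endothelial cells, where it had 2 reads, a ratio of 2136 (591 to 17644). Osmr, the receptor chain for oncostatin M, ran the other way, with 0.53 CPM in the microglia class and 361 CPM in endothelial cells.

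Nr4a1, on chromosome 15, encodes the orphan nuclear receptor Nur77. Over the pooled classes it had the smallest ratio of the 8, 1.30-fold (1.27 to 1.33), with 838 (830.1 to 847) CPM in the microglia class and 644.9 (634 to 656) CPM in endothelial cells. Cells ranged from 0 to 13577 CPM with a median of 16.8 CPM in the microglia class, and from 0 to 8863 CPM with a median of 14.7 CPM in endothelial cells, so the classes overlapped throughout. The mean of the values of single cells was 683 CPM in the microglia class and 723 CPM in endothelial cells, the opposite order, while within plates A and B the pooled ratio was 1.47 and 2.08. On plate A Socs3 and Ier2 had smaller ratios than Nr4a1, and on plate B Dusp1, Socs3 and Ier2 did. Of the NR4A family 1 of 3 passed 4-fold in the microglia class, against 19.9% of all genes. It was Nr4a3, at 78.2 CPM in the microglia class and 15.2 CPM in endothelial cells. Nr4a2 stood at 84.6 CPM in the microglia class and 39.6 CPM in endothelial cells, but its log2 ratio was -3.00 on plate A and 3.24 on plate B.

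**Figure D2:**
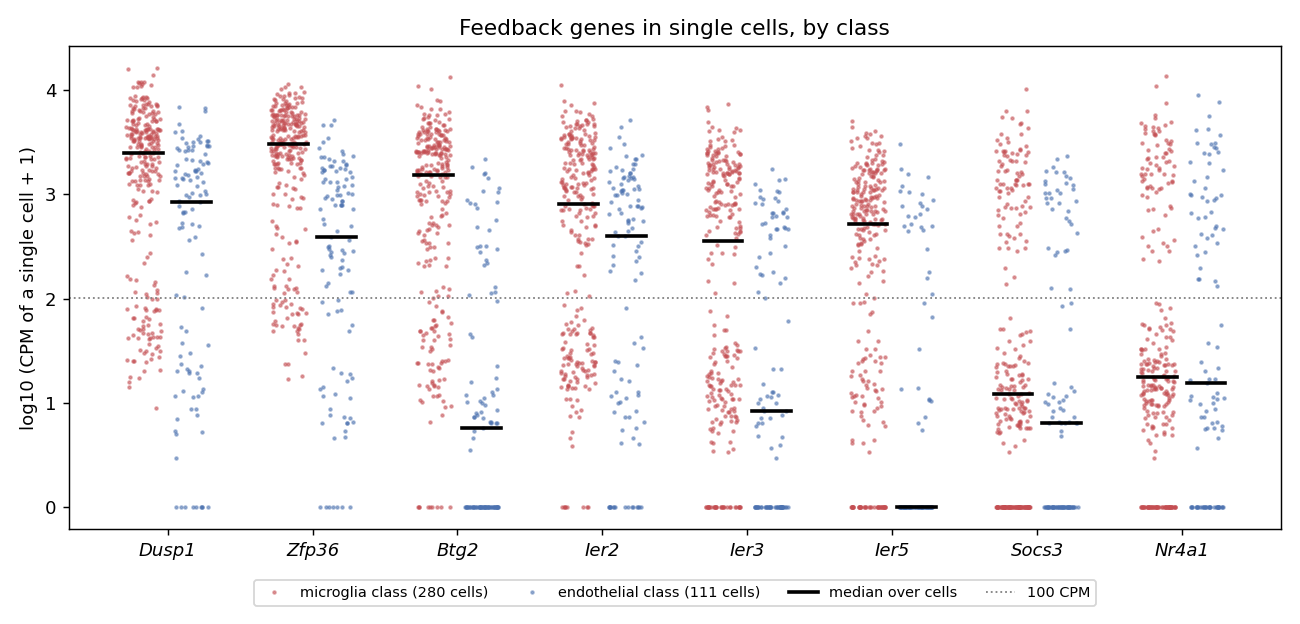
Each point is a cell, placed by its CPM of the gene on a scale of log10(CPM + 1), with microglia-class cells in red, endothelial cells in blue, a black bar at the median over cells and a dotted line at 100 CPM. Dusp1 and Zfp36 lie above the line in most cells of both classes, while Socs3 and Nr4a1 split into a group of cells above it and a larger group near or below 1 to 2 on the scale, with medians of 11.3 and 16.8 CPM in the microglia class.

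Low read numbers need care in these shares, because transcripts of the other class's markers were also read at low level. Endothelial markers had a median of 5.61 CPM in the microglia class on plate A and 4.52 CPM on plate B, and their reads were present in 9.02 to 57.9% of microglia-class cells on plate A and 13.6 to 77.6% on plate B. Microglia markers had a median of 8.83 CPM in endothelial cells on plate A, 8.49 on B, 5.69 on C and 2.05 CPM on D. Their reads were present in 28.6 to 71.4% of endothelial cells on plate A and 30 to 90% on plate B. On plates C and D the shares were 10 to 56% and 6.82 to 45.5%. Cells with 10 or more such reads were few: a median of 0.18% over 10 endothelial markers in the microglia class with a highest share of 12.9%, and a median of 0.45% over 10 microglia markers in endothelial cells with a highest share of 23.4%. Shares of cells are therefore given at 10 reads or more. What part carry-over between wells has in cells with 1 to 9 reads was not tested.

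With that limit, Zfp36 was present in 90% of microglia-class cells and 73.9% of endothelial cells. Dusp1 was present in 83.6% of microglia-class cells and 65.8% of endothelial cells, and Ier2 in 65.7% of microglia-class cells and 62.2% of endothelial cells. These 3 genes were thus present in most cells of both classes. Btg2 was present in 76.1% (70.6 to 80.9) of microglia-class cells and 27.0% (19.0 to 36.3) of endothelial cells, and Ier5 in 65.4% (59.5 to 70.9) of microglia-class cells and 25.2% (17.5 to 34.4) of endothelial cells. Ier3 was present in 53.6% of microglia-class cells and 37.8% of endothelial cells.

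Socs3 and Nr4a1 did not follow their pooled ratios. Socs3 was present in 32.5% (27.0 to 38.3) of microglia-class cells and 33.3% (24.7 to 42.9) of endothelial cells. Nr4a1 was present in fewer cells of the microglia class, 30.4% (25.0 to 36.1), than of the endothelial class, 42.3% (33.0 to 52.1), with overlapping intervals. After cells were thinned to 71000 reads it was present in 29.7% of microglia-class cells and 37.8% of endothelial cells. Thinning removed 34 cells of the microglia class and 0 of the endothelial class. A further 48.9% of microglia-class cells and 27.0% of endothelial cells had 1 to 9 Nr4a1 reads.

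The level among the cells that held a gene also differed. Over cells at 100 CPM or more, a limit added after seeing the data, the median Nr4a1 level was 1764 CPM in 78 microglia-class cells and 957 CPM in 46 endothelial cells, 1.84-fold. By plate the Nr4a1 median was 1390 CPM on plate A and 2459 CPM on plate B in the microglia class. In endothelial cells it ran from 497 CPM on plate B to 1702 CPM on plate D. For Socs3 the median was 1306 CPM in 90 microglia-class cells and 922 CPM in 35 endothelial cells, 1.42-fold. For Ier5 it was 911 CPM in 181 microglia-class cells and 687 CPM in 26 endothelial cells, 1.33-fold. The ratio of Ier5 between the classes was thus mostly a matter of how many cells held it. For Btg2 the median was 2403 CPM in 212 microglia-class cells and 528 CPM in 28 endothelial cells, 4.55-fold, so that both the share of cells and the level in them were higher in the microglia class.

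**Figure D3:**
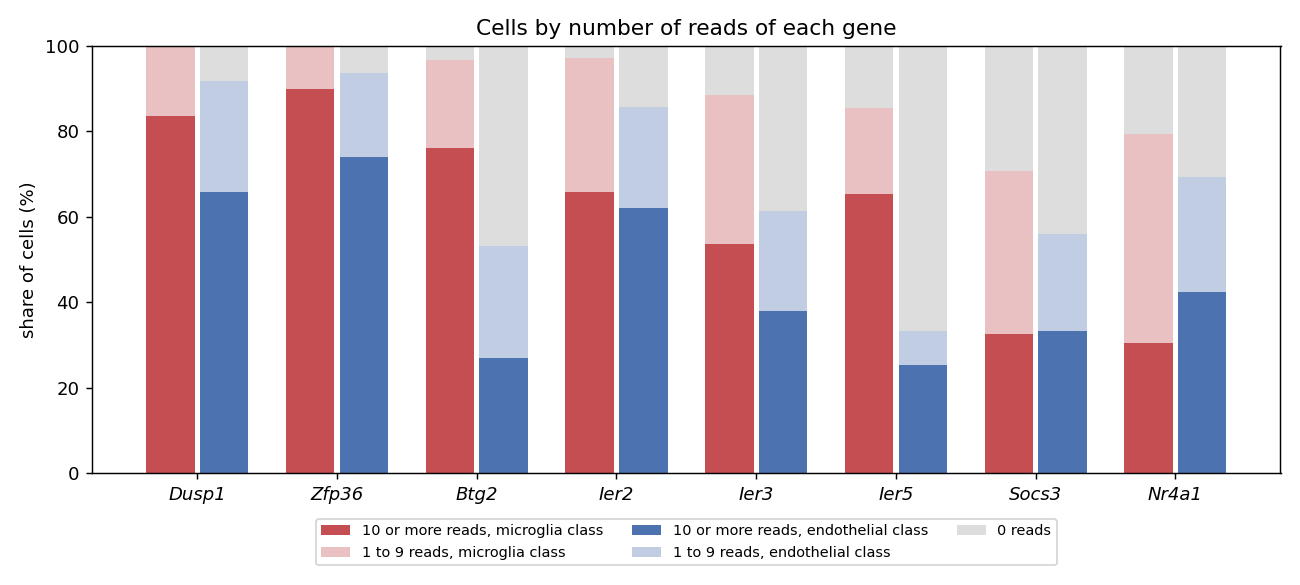
Share of cells in percent with 10 or more reads (dark), 1 to 9 reads (light) or 0 reads (grey) of each feedback gene, with the microglia class (red) left of the endothelial class (blue). The dark part is larger in the microglia class for Btg2 (76.1% against 27.0% in endothelial cells) and Ier5 (65.4% against 25.2%), close for Socs3 and smaller for Nr4a1 (30.4% against 42.3%).

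Cells usually held several of the 8 genes. The median cell had 5 of them at 100 CPM or more in the microglia class and 4 in the endothelial class. All 8 were at that level in 27 microglia-class cells, 9.64%, and in 0 of 111 endothelial cells, which allows a share of up to 2.70% with a count of 0 taken to allow 3 cells. None was at that level in 8 microglia-class cells and 5 endothelial cells. The 8 genes summed to between 114 and 50689 CPM in microglia-class cells, with a median of 11652 CPM, and to between 0 and 15540 CPM in endothelial cells, with a median of 3878 CPM.

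The spread over cells was set beside the median coefficient of variation (SD over mean) of genes within 1.5-fold of the same level in the same class. Nr4a1 varied most in the microglia class, at 2.33 against 1.25 for genes of like level, and exceeded 99.3% of them. In endothelial cells it stood at 2.08 against 1.20 and exceeded 99.6%. Socs3 stood at 2.12 against 1.397 in the microglia class, above 96.8% of like genes, but at 1.78 against 1.75 in endothelial cells. The top 10% of cells held 66.4% of the summed Nr4a1 CPM in the microglia class and 64.2% among endothelial cells, and 61.9% of the summed Socs3 CPM in the microglia class and 55.9% among endothelial cells.

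Zfp36 had a coefficient of 0.79 against 0.68 for like genes in the microglia class and 1.21 against 1.04 in endothelial cells, and Dusp1 0.99 against 0.70 in the microglia class and 1.17 against 0.90 in endothelial cells. Btg2 and Ier5 were spread far more among endothelial cells, at 2.29 and 2.33, than among microglia-class cells, at 1.06 and 1.21, but genes at their lower endothelial level had medians of 2.18 and 2.23. Ier3 lay below its like genes in endothelial cells, at 1.64 against 1.95.

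**Figure D4:**
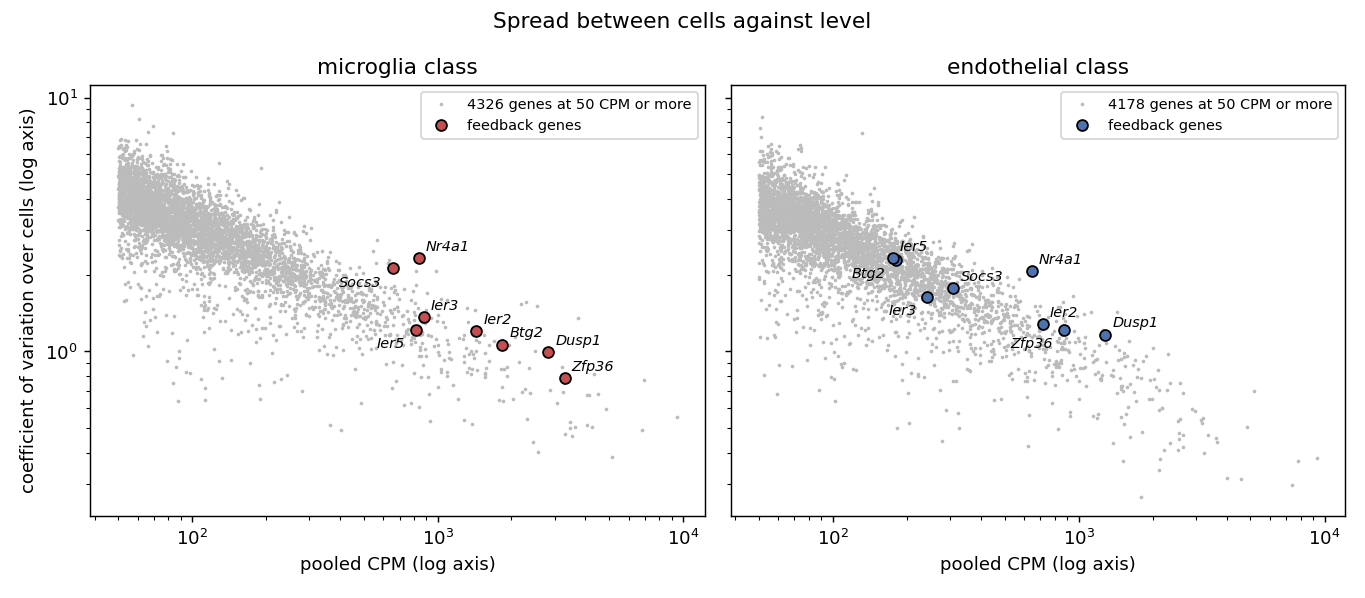
Coefficient of variation over cells against pooled CPM, both on log axes, in the microglia class (left) and the endothelial class (right), with the feedback genes as large points and all genes at 50 CPM or more in grey (4326 in the microglia class, 4178 in the endothelial class). Nr4a1 stands above the cloud of genes of its level in both classes, at 2.33 in the microglia class and 2.08 in the endothelial class, and so does Socs3 in the microglia class, at 2.12.

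Feedback genes varied together over the cells of a class, with higher correlations in the microglia class. Spearman correlations were taken over cells after the mean of each plate was removed, and are descriptions, since cells of a class share plates, preparation and depth. In 280 microglia-class cells the 28 pairs ran from 0.03 for Ier3 with Ier5 to 0.50 for Zfp36 with Ier2, with a median of 0.23. All 28 were above 0. In 111 endothelial cells they ran from -0.18 for Ier3 with Nr4a1 to 0.27 for Btg2 with Nr4a1, with a median of 0.12, and 24 of 28 were above 0. Within plate C alone the endothelial pairs ran from -0.23 to 0.45. Pairs of other genes read in at least 50% of cells had medians of 0.03 over 1136 genes in the microglia class and 0.02 over 1264 genes in endothelial cells. Ier5, read in 33.3% of endothelial cells, would not have met that limit. What part cells without a read have in the lower endothelial correlations was not tested.

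Zfp36 was the gene most closely tied to the rest in the microglia class, with a correlation of 0.68 with the mean of the other 7, and Ier3 the least, at 0.20. In endothelial cells Ier2 led at 0.37, followed by Dusp1 at 0.33, and Nr4a1 was lowest at 0.09. The sum of the 8 genes moved little with the number of gene reads of a cell, at 0.02 in the microglia class and -0.08 among endothelial cells, or with the mitochondrial share, at -0.05 in the microglia class and -0.11 among endothelial cells. It moved with the sum of AP-1 and Egr factors, at 0.78 in the microglia class and 0.64 among endothelial cells. With the sum of heat shock genes it stood at 0.45 in both classes.

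**Figure D5:**
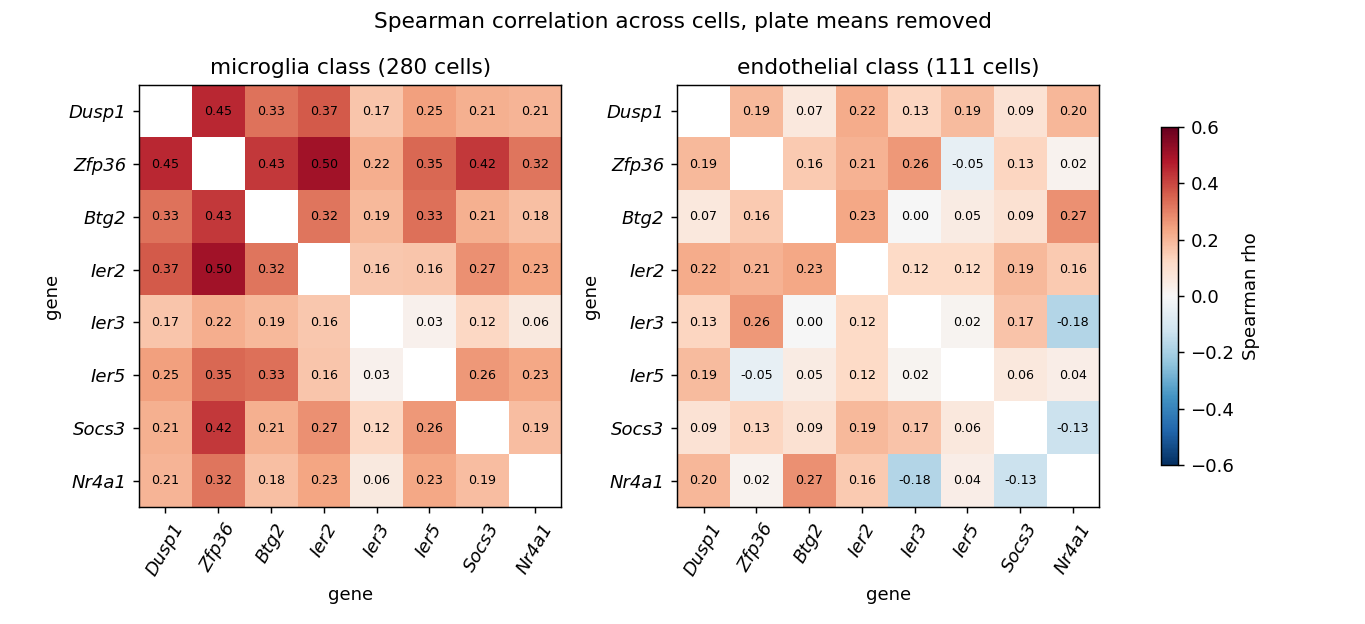
Spearman correlation over cells, with plate means removed, for each pair of feedback genes in the microglia class (left, 280 cells) and the endothelial class (right, 111 cells), on a colour scale of -0.6 to 0.6. The row of Zfp36 is the darkest in the microglia class, reaching 0.50 with Ier2, and the endothelial values lie between -0.18 and 0.27.

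The genes most like the feedback genes were other early-response genes and heat shock genes, and only Fos was among the 5 nearest in both classes. Only genes read in at least 50% of the cells of a class were ranked, without mitochondrial, ribosomal protein and predicted genes. The rank followed their Spearman correlation with the mean score of the feedback genes read in at least 50% of cells. In the microglia class, over 280 cells and 1040 genes, the nearest were the transcription factor genes Atf3 at 0.66, Junb at 0.60 and Fos at 0.55, then Nfkbia, which encodes an inhibitor of NF-kB, at 0.53 and Fosb at 0.51. In endothelial cells, over 111 cells and 1182 genes and without Ier5, which was read in under 50% of them, they were Fos at 0.52, the heat shock gene Hspb1 at 0.48, the transcription factor gene Egr1 at 0.47, the heat shock gene Hspa1a at 0.47 and Jun at 0.45. Nfkbia stood at 0.05 in endothelial cells, at rank 535. Hspa1a stood at 0.27 in the microglia class, at rank 46. Just past the 5 nearest were Junb in endothelial cells, at 0.44 and rank 6, and Egr1 in the microglia class, at 0.46 and rank 7. Jun stood at 0.35 in the microglia class, at rank 22. Atf3 and Fosb, read in 19.8% and 46.8% of endothelial cells, were not ranked there. Nor was Hspb1 in the microglia class, where 40% of cells held a read. The difference between the classes in these correlations has no test.

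Other early-response factors showed class ratios like those of the feedback genes. Of 11 measured AP-1 and Egr factors 4 passed 4-fold in the microglia class, 0 in endothelial cells and 7 lay between. Among all genes 19.9% and 11.7% passed. The median log2 ratio of the factors was 1.36 pooled, 1.19 on plate A and 1.41 on plate B, against 0.36, 1.73 and 1.87 over all genes. Fos stood at 4343 CPM in the microglia class and 2010.1 CPM in endothelial cells, and Jun at 3213 CPM in the microglia class and 2575 CPM in endothelial cells. Atf3, at 1416 CPM in the microglia class and 32.7 CPM in endothelial cells, and Egr2, at 219 CPM in the microglia class and 0.09 CPM in endothelial cells, were among those past 4-fold.

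NF-kB feedback genes leaned further to the microglia class. Of 8 measured, 4 passed 4-fold there, against 19.9% of all genes, and 0 in endothelial cells, against 11.7%. The median log2 ratio was 1.82 pooled, 5.57 on plate A and 5.22 on plate B, against 0.36, 1.73 and 1.87 over all genes. Nfkbia stood at 1615 CPM in the microglia class and 649 CPM in endothelial cells, and Nfkbiz, an inducible nuclear member of the inhibitor family, at 904 CPM in the microglia class and 27.5 CPM in endothelial cells. Nfkbid, another nuclear member, had 557 CPM in the microglia class and 0.09 CPM in endothelial cells, and Tnfaip3, which encodes the ubiquitin-editing brake A20, 263 CPM in the microglia class and 51.3 CPM in endothelial cells.

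Heat shock genes are commonly read as a sign of stress, in the tissue or during preparation. Of 10 measured 1 passed 4-fold in each class and 8 lay between, with a median log2 ratio of 0.89 pooled, -0.21 on plate A and 1.22 on plate B. Hspa1a, the inducible chaperone gene, stood at 1108 CPM in the microglia class and 1066 CPM in endothelial cells, and Dnajb1, its co-chaperone, at 790.4 CPM in the microglia class and 409 CPM in endothelial cells, with a log2 ratio of -0.53 on plate A and 1.19 on plate B. Hspb1, a small heat shock gene, had 29.2 CPM in the microglia class and 451 CPM in endothelial cells. Its log2 ratio was -4.05 on plate A and -4.37 on plate B. Hspe1, a mitochondrial chaperonin gene, had 185 CPM in the microglia class and 28.2 CPM in endothelial cells. The log2 ratio of Hspe1 was only 0.12 on plate A and 2.72 on plate B.

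Within the microglia class the feedback genes were set against 2 markers that took no part in choosing them: Sall1, a transcription factor of parenchymal microglia, and Mrc1, a receptor of border-associated macrophages. With a limit of 10 reads, 36 cells held Sall1 without Mrc1, 186 held Mrc1 without Sall1, 2 held both and 56 neither. These are ranges of 2 genes, not cell types. Socs3 differed most between the first and the second of these sets of cells, with 1169.6 CPM in Sall1 cells and 479 CPM in Mrc1 cells, 2.44-fold. It was 3.46-fold higher in Sall1 cells within plate A, which held 17 Sall1 cells and 98 Mrc1 cells, and 2.10-fold higher within plate B, which held 19 Sall1 cells and 88 Mrc1 cells. The median Sall1 cell had 834 CPM of Socs3 and the median Mrc1 cell 7.54 CPM, and the ranges overlapped, from 0 to 5451 CPM in Sall1 cells and from 0 to 5405 CPM in Mrc1 cells.

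The other feedback genes differed less along this axis. Zfp36 stood at 4027 CPM in Sall1 cells and 3023 CPM in Mrc1 cells, and Ier5 at 1123 CPM in Sall1 cells and 800.2 CPM in Mrc1 cells, both higher in Sall1 cells on each plate at this limit. With a limit of 1 read Zfp36 was lower in Sall1 cells on plate B, at 2291 CPM against 3231 CPM in Mrc1 cells. Ier3 ran the other way, at 725 CPM in Sall1 cells and 1015 CPM in Mrc1 cells, and was lower in Sall1 cells on each plate. Dusp1, at 2903 CPM in Sall1 cells and 2826 CPM in Mrc1 cells, and Btg2, at 1985 CPM in Sall1 cells and 1908 CPM in Mrc1 cells, were close. Ier2 and Nr4a1 changed direction between plates A and B. Cells with neither marker had the highest pooled Nr4a1 level, 1462 CPM, but the median such cell had 23.3 CPM and the highest 13577 CPM. On plate A 17 of these cells pooled to 2406 CPM, and on plate B 39 to 1094 CPM. Their pooled Ier3 level, 505 CPM, was lower than in Sall1 or Mrc1 cells. Sall1 cells had a median of 175566 gene reads and Mrc1 cells 144388, and the part of this depth in the values was not tested.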

How the data were processed

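Per the labels, single cells from adult mouse brain were sequenced with Smart-seq2. The authors deposited raw counts, whole numbers of reads for each of 56941 genes in each of 391 cells, without normalization. SAMtools 1.16.1, featureCounts, Subread 1.4.6-p5 and genome build GRCm39 are named in the submitters' processing notes. Aligner, annotation, strand setting and the treatment of multiply mapped reads: not given in the sources used here. Overlapping and antisense genes therefore cannot be told apart.

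The class of each count column came from the deposited cell table, in which MG stands 280 times and CP-EC 111 times, matching the sizes of the labelled classes. All count columns were used (0 unused), 0 were duplicates of another, and neither a filter on cells nor a doublet caller was applied, every well being deposited as a single cell. Plates come from the start of the column names.

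Reads were summed per class and divided by its gene reads (CPM). Sums have exact Poisson intervals, ratios exact conditional binomial intervals and shares of cells Clopper-Pearson intervals, at 95%. A pseudocount of 1 CPM was added before log2, so the ratios of low genes are understated. For shares of cells, a count of 0 was taken to allow 3 cells. Exon lengths come from GENCODE M21, an annotation of the older build GRCm38, and promoters from RefSeq. Cells were thinned to 71000 gene reads for shares. The alternatives were other plates, scaling by edgeR's TMM or DESeq2 size factors, a pseudocount of 0.1 CPM, means of cells, thinning, and leaving out the top 5% of cells.

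Named were the 8 genes, of each of 13 pathway lists the 2 most abundant other members and any at 100 CPM or more past 4-fold, and per class the 5 genes most correlated with the feedback genes. Members and lists were chosen with earlier results of these data known. Counts were simulated for the comparison of microglia class with endothelial class (56941 genes, 200 changed). They held counting error only, without spread between cells or plates. The true ratio lay in the interval for 93.5% of the changed genes. The 4-fold size was reached by 100% of genes planted at 8-fold, by 0% of those planted at 2-fold and by 0 of 14160 unchanged genes. How intervals and calls behave under the spread between cells and plates was not tested. Computation used R 4.3.3 with edgeR 4.0.16 and DESeq2 1.42.0, and Python 3.11.15 with pandas 2.3.3, matplotlib 3.10.9, scipy 1.17.1 and numpy 2.4.6.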

Additional observations from a re-analysis of the deposited data

How the results depend on the processing

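Of 80 single-gene log2 ratios over 10 alternatives, 78 kept the microglia class higher. The exceptions were Socs3 within plate A (-0.15) and Nr4a1 with the mean of single-cell CPM (-0.082); the cause was not tested. The 2 genes at 4-fold or more became 1 (Btg2) with the mean of single-cell CPM and 1 (Btg2) after thinning, 3 (Zfp36, Btg2 and Ier5) without plate C, and 4 (Zfp36, Btg2, Ier3 and Ier5) without the 5% of cells highest in each gene. The median log2 ratio of 1.49 became 0.89 within plate A, 1.07 within plate B, 1.57 without plate C, 1.46 without plate D, 1.59 with the mean of cells, 1.41 with TMM, 1.36 with DESeq2 size factors, 1.58 after thinning and 1.66 without the highest 5% of cells. The median over all genes, 0.36, became 0.29 with TMM, 0.24 with DESeq2 size factors and 0.00 with no filter on low genes. Log2 ratios ran from 2.30 to 7.80 for Btg2, 0.87 to 2.53 for Ier5 and 0.61 to 1.25 for Dusp1. The median correlation between feedback genes was 0.27 within plate A in the microglia class and 0.11 within plate C in endothelial cells. With the limit for Sall1 and Mrc1 at 1 read, which left 9 Sall1 and 208 Mrc1 cells, the log2 ratio between them was 1.95 in place of 1.28 for Socs3, -1.38 in place of -0.48 for Ier3, and -0.31 in place of 0.06 for Btg2. For Zfp36 on plate B it was -0.50 in place of 0.26. Scalings of the all-gene median and the limit of 100 CPM were added after seeing the data. No paired analysis was possible because the cells carry no replicate numbers and no class has more than 1 sample. Plates shared by the classes hold 7 and 10 endothelial cells, which limits every within-plate value.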
